A study of Mus musculus with 46 samples.

Results

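In adult F1 hybrid mice each autosomal gene is present as 1 C57 and 1 CAST allele, and RNA counts of the alleles were compared within 18 libraries of the dorsal raphe nucleus. The genes were chosen by rule: autosomal, with a mean summed count (C57 plus CAST, over the 18 libraries) of 20 or more. Of the 15499 genes in the adult table, 12675 reached this count and 11962 of them were placed on an autosome, while 416 X-linked genes and 297 genes not placed by the annotation were left out. A further 2824 genes were below the minimum, 150 of them without a count in any adult library. Reads of near-identical copies can be credited to the wrong gene, and 2315 of the 11962 genes were therefore set apart: pseudogenes, cytosolic ribosomal protein genes, Gapdh and genes that share 10% or more of their 31-base transcript words with another gene. The other 9647 are called genes with own sequence.

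The study holds 46 RNA libraries of female F1 mice at P5, P15 and as adults, from crosses of C57 and CAST mice in both directions. The adult groups were F1i, with 9 libraries, and F1r, with 9 libraries, and both carried 1 genome of each strain. The maternal strain of F1i, the substrain of C57 and the age of the adults in days are not given in the labels. Adult libraries carry a first and a second label number, and nothing says whether a shared first number marks 1 animal, so p values measure the spread between libraries, part of which may be technical. The summed allele counts of a library ran from 4912934 to 13085952.

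CAST mice descend from wild castaneus mice and differ from C57 at many sequence positions, so that a short read over such a position can be credited to 1 parent. In an F1 animal both alleles lie in the same nuclei and meet the same transcription factors, and the allele ratio is therefore the usual measure of regulatory differences encoded in or near the gene itself. The dorsal raphe nucleus is the main midbrain source of serotonin for the forebrain and also holds GABA, glutamate and peptide neurons, glia and vessels.

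The tissue label was checked against marker genes, with the alleles summed, as counts scaled to library size (CPM). Serotonin neuron markers summed to 1012 to 1402 CPM in F1i and 1035 to 1363 in F1r, with 4 of 5 markers in the table. Oligodendrocyte markers reached 4382 to 7292 CPM, astrocyte markers 1842 to 2370, microglia markers 173 to 244, endothelial markers 72.6 to 115.6, ependymal and choroid plexus markers 73.2 to 164.7 and cranial motor neuron markers 188 to 428. In that last list Slc5a7, the choline transporter gene, alone gave 149 to 362 CPM. Cerebellar markers (3 of 5 in the table) stayed at 0.44 to 2.65 CPM, forebrain markers (2 of 5) at 1.14 to 2.97 and the blood marker Alas2, 1 of 5, at 0.231 to 1.83. Cerebellar, forebrain and blood markers were thus near 0 in every library, and the part of non-neuronal cells in any allele ratio was not tested.

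For 7 genes that were set apart, the coding sequence was compared with that of the closest copy annotated elsewhere in the genome. Stretches of 60 bases from 5 of these pairs show how close gene and copy are over the length of a 50-base read; capitals mark the bases at which gene and copy differ in the reference annotation (GENCODE, GRCm38). These are differences between gene and copy, not between strains, and none of the 5 copies has a row in the deposited table. The pairs were chosen after their values were seen.
Rps19, chromosome 7: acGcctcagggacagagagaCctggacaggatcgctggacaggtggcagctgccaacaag
Rps19-ps6, chromosome 12: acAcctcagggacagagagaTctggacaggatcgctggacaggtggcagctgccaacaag
Rpl23a, chromosome 11: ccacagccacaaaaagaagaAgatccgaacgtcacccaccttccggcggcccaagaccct
Rpl23a-ps3, chromosome 14: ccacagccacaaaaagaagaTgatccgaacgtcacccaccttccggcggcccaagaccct
Hmgb1, chromosome 5: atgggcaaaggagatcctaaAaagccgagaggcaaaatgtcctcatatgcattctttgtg
Gm21596, chromosome 2: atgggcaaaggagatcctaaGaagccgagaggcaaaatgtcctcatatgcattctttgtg
Eef1g, chromosome 19: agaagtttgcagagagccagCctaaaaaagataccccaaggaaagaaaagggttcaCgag
Gm4366, chromosome 7: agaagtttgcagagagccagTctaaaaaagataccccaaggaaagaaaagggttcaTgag
Ndufs5, chromosome 4: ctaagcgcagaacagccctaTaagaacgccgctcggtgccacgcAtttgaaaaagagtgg
BC002163, chromosome 16: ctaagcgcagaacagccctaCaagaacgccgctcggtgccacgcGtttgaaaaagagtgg

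Identity over the aligned coding bases was 98.9% for Rps19 (435 bases), 99.8% for Rpl23a (468), 99.8% for Hmgb1 (645), 99.6% for Eef1g (1311) and 99.4% for Ndufs5 (318). For Rps12 and for Gapdh a copy was identical over the whole coding sequence, 396 and 999 bases. With chromosome 18 left out, transcripts of 311 other genes shared words with the coding sequence of Gapdh. The genes compared with a copy had some of the most uneven allele counts. Ndufs5, a subunit of respiratory complex I, had a CAST share of 93.7% (lowest), 95.8% (median) and 96.5% (highest) in F1i and of 94.1%, 95.7% and 97.3% in F1r. For Rpl23a the CAST share ran from 98.1% to 99.1% over all libraries. On the other side Eef1g, a translation elongation factor subunit, had a log2 CAST over C57 ratio of -2.52 ± 0.08 (SE). Values of this class are printed apart below, since some reads of a copy or of an overlapping gene model may be counted for the named gene. How far this shaped any ratio was not tested.

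Among genes with own sequence the alleles differed often and usually by little. The mean of the F1i and F1r log2 ratios (CAST over C57) differed from 0 at an adjusted p of 0.05 in 6371 of 9647 genes, or 66% (edgeR quasi-likelihood test, Benjamini-Hochberg). CAST was higher for 3154 (32.7%) and C57 for 3217 (33.3%). The median size was 0.14 log2 units over all 9647 genes and 0.22 over the called ones, and the median signed ratio was -0.0004. In 2295 genes, 23.8%, every one of the 18 libraries leaned the same way. Called differences of 1 log2 unit (2-fold) or more were few: 289 genes, 3%, of which 156 were higher from CAST and 133 from C57. At 2 log2 units or more there were 66 (0.684%), 45 and 21. Over all 11962 autosomal genes, those set apart included, the shares at these sizes were 4.2% and 1.51%.

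Against a minimum fold of 1.2, in place of any difference, 1799 of 9647 genes with own sequence were called, 909 with CAST and 890 with C57 higher. Counts at this fold in the lists below are to be read beside these numbers, not beside the share called in the main test. How many genes were called depended on depth. Of genes with a mean summed count of 20 to 50, 48.7% were called, with a median SE of 0.12, while in the highest of 6 count ranges 78.8% were called, with a median SE of 0.018. The size of the ratio went the other way: its median was 0.27 log2 units in the lowest and 0.10 in the highest of these ranges. Called ratios of 1 log2 unit or more made up 10.4% of the former and 0.381% of the latter.

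**Figure D1:**
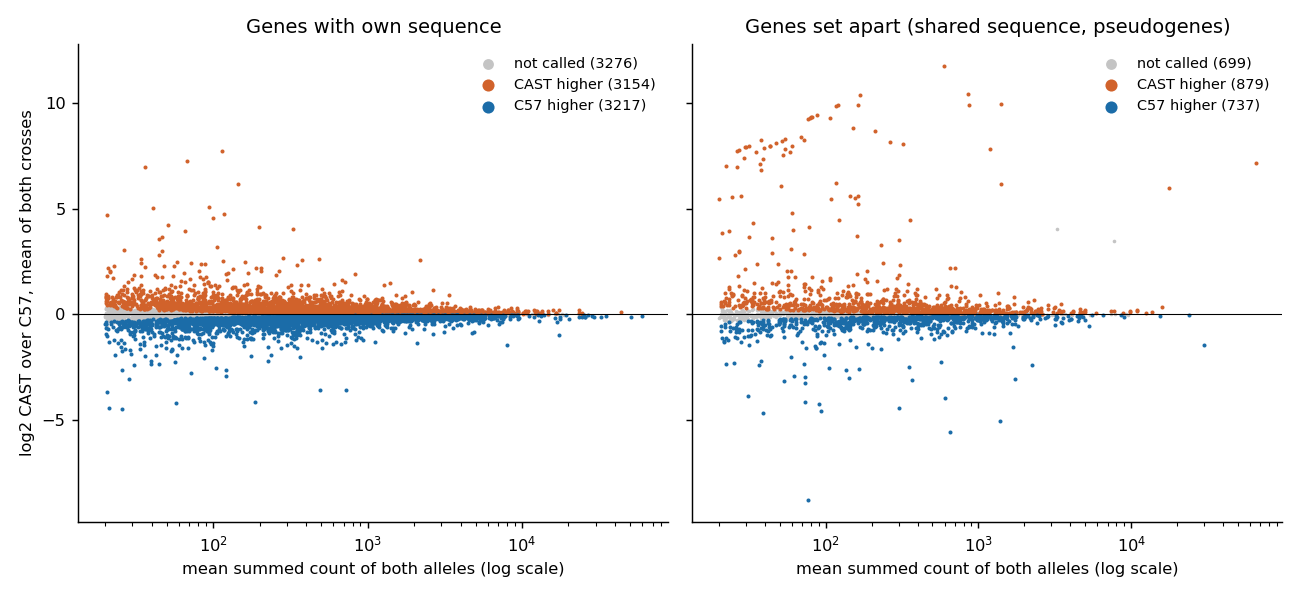
Log2 CAST over C57 ratio (mean of both crosses, y axis) against the mean summed count of both alleles (log x axis), 1 point a gene, for 9647 genes with own sequence (left) and 2315 set apart (right). Orange and blue points passed an adjusted p of 0.05. On the left ratios narrow as counts rise; on the right a group of genes lies at 5 log2 units or more above 0.

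Genes differed by transcript type as well. Protein-coding genes (9505) had a median size of 0.14 log2 units and 2.8% of them were called at 1 log2 unit or more. The 39 long intergenic RNA genes had a median of 0.49 and 17.9%, the 40 antisense genes 0.36 and 20% and the 46 processed transcripts 0.35 and 15.2%. Ratios were larger at low counts, as given above, and the part of depth in these differences was not tested. Strand is not stated for the counts, so reads of an antisense gene and of its partner cannot be told apart. Along the chromosomes called genes were interspersed: of 6352 pairs of neighbouring called genes 50.7% leaned the same way, against 50.5% of pairs 100 called genes apart. The share called ran from 61.3% on chromosome 19 to 70.6% on chromosome 16.

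Added up over all 9647 genes, CAST supplied 49.9 ± 0.228% of the allele counts (SD, n = 18), from 49.6% to 50.2%. The crosses lay on opposite sides of an even split in every library. F1i was at 49.7 ± 0.058% and F1r at 50.1 ± 0.024% (SD, n = 9 each), each with p = 0.00391 by an exact two-sided sign-flip test, the smallest value that 9 libraries allow, and 0.00938 with Benjamini-Hochberg adjustment over 12 tests of balance. These tests of each cross were chosen after seeing the data. Over both crosses, whose departures oppose each other, a sign-flip permutation test with 100000 resamples gave p = 0.178 (adjusted 0.267). With the genes set apart included, the share was 50.5 ± 0.463% (permutation p = 2e-05, adjusted 0.00024), 50.9% in F1i and 50.1% in F1r. In this set the F1i libraries ran from 50.8% to 51.1% and the F1r libraries from 50.0% to 50.1%. The crosses did not overlap, so the pooled mean and its p describe neither cross alone. The other measure of balance, the median log2 ratio of a library over genes with a mean summed count of at least 100, averaged -0.0014 for genes with own sequence (permutation p = 0.0158, adjusted 0.0316) and -0.00022 with the genes set apart included (p = 0.501, adjusted 0.547). For genes with own sequence it ran from -0.005 to 0 with a median of 0. In both gene sets most libraries were at exactly 0. Each p thus rests on the few libraries below 0 and is about the smallest that they allow.

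Among protein-coding genes with own sequence, a mean summed count of at least 100 and 1 direction in all 18 libraries, the largest CAST excess was that of Tspan10, a tetraspanin membrane protein gene on chromosome 11. Its 18 libraries held 2048 CAST and 7 C57 counts together. The CAST share was 98.9%, 100% and 100% (lowest, median, highest) in F1i and 98.8%, 100% and 100% in F1r, and the log2 ratio was 7.73 ± 0.15. Sec14l3, a lipid transfer protein gene of the same chromosome, followed with shares of 97%, 98.9% and 100% in F1i and 97.7%, 98.5% and 100% in F1r, from 2590 CAST and 34 C57 counts. In these libraries both genes were thus read almost only from the CAST chromosome, in every library.

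Thbs4, the secreted matrix protein thrombospondin 4, had CAST shares of 92.1%, 96.4% and 99% in F1i and 94.2%, 96.5% and 99% in F1r, a 26.5-fold excess (log2 4.73 ± 0.10). For C3, the central complement component, the shares were 91.3%, 95.6% and 97% in F1i and 90.7%, 93.9% and 96.6% in F1r (4.11 ± 0.08). For H2-Ab1, the beta chain of a class II histocompatibility molecule, they were 93.1%, 93.8% and 96% in F1i and 92.4%, 94.3% and 97.4% in F1r (4.02 ± 0.06). In all 3 genes no library fell below 90.7%. The remaining genes of this rank were Cyp2j12, a cytochrome P450 (3.18 ± 0.09), Cenps, a centromere and DNA repair protein (2.66 ± 0.05), Pla2g4e, a cytosolic phospholipase (2.61 ± 0.05), Sfi1, a centrin-binding protein (2.59 ± 0.05), Wdfy1, an endosomal protein (2.55 ± 0.02), Rtkn2, a rhotekin (2.51 ± 0.08), and Acsm5, a mitochondrial acyl-CoA synthetase (2.46 ± 0.07). Wdfy1 was the most abundant of the 12, with a mean summed count of 2187, and its share ran from 83% to 86.5% in F1i and from 85% to 88.5% in F1r.

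Among genes read mainly from C57, Lbp, which binds bacterial lipopolysaccharide, had CAST shares of 2.74%, 5.34% and 7.85% in F1i and of 2.67%, 5.91% and 8.43% in F1r. Pttg1, the securin that holds sister chromatids together, had 4.92%, 7.1% and 9.16% in F1i and 7.04%, 7.69% and 8.25% in F1r, and its C57 allele was 12.1-fold higher (log2 -3.60 ± 0.03). For the fatty acid binding protein gene Fabp5 the shares were 5.14%, 8.39% and 9.57% in F1i and 5.04%, 7.04% and 10.8% in F1r; 9.27% of its transcript words recur elsewhere, just under the 10% that would have set it apart. No library of these 3 genes reached a CAST share of 11%, and the crosses overlapped.

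Next came 4930447C04Rik (-2.90 ± 0.08), Clic6, a chloride channel protein gene of the choroid plexus (-2.65 ± 0.07), Abca8a, a lipid transporter (-2.54 ± 0.09), Upp2, a uridine phosphorylase (-2.18 ± 0.05), and Cd59a, an inhibitor of complement-mediated lysis (-2.02 ± 0.04). A2ml1, a protease inhibitor of the alpha-2-macroglobulin family, stood at -1.91 ± 0.06. Mttp, which loads lipid onto lipoproteins, stood at -1.60 ± 0.03, Uros, a heme synthesis enzyme, at -1.58 ± 0.04 and Hikeshi, which carries Hsp70 into the nucleus, at -1.57 ± 0.05. Cd59a and, among the genes higher from CAST, Sfi1 also lie close to the limit for shared words, with 9.39% and 9.59%. Abca8a varied the most of these genes: its CAST share ran from 11.6% to 23.1% in F1i and from 4% to 17.2% in F1r. In the plot of CAST shares by library these 24 genes stay on 1 side of 50% in all libraries, a property required by the rule that picked them.

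**Figure D2:**
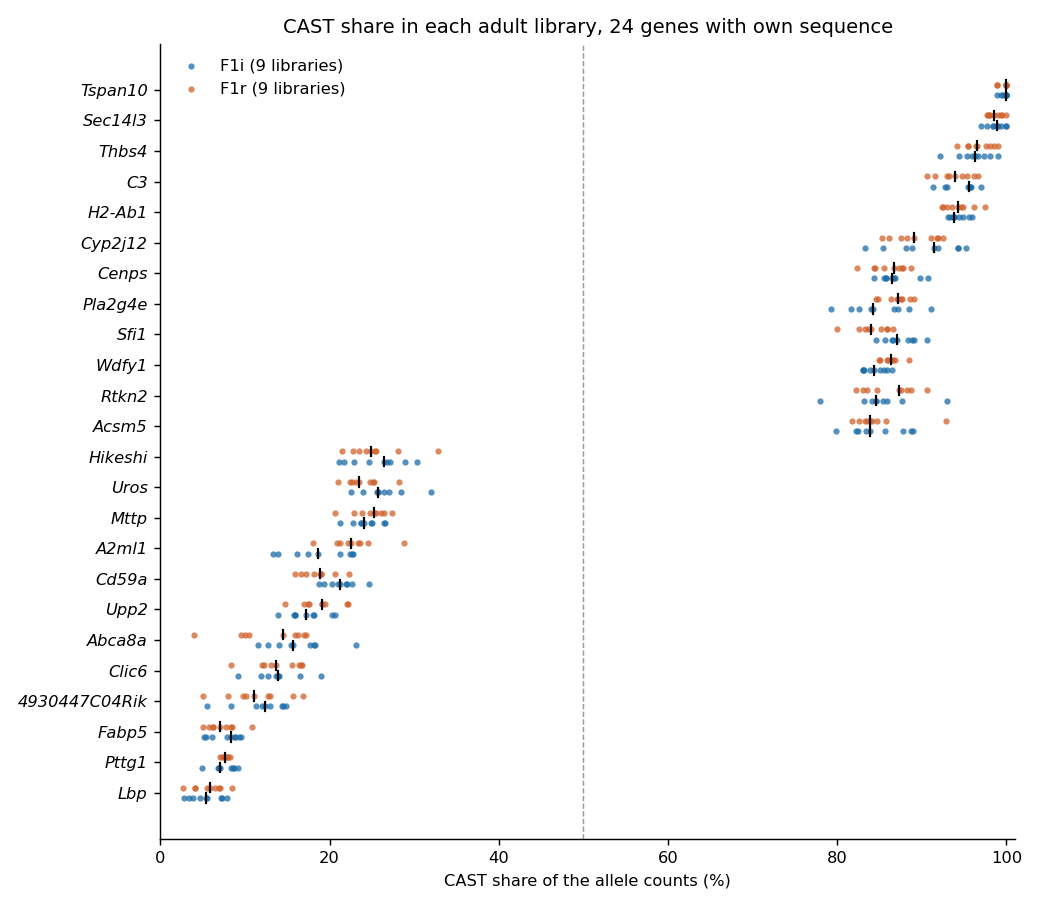
CAST share of the allele counts (x axis, %) in each of 9 F1i (blue) and 9 F1r (orange) libraries for the 12 protein-coding genes with own sequence that have the largest ratio each way (mean summed count at least 100). Black ticks are medians of 9; the points of Tspan10 lie at 98.8% or more and those of Lbp at 8.43% or less.

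Abundant genes were near balance, and counts were high enough to resolve small departures. The 10 most abundant genes with own sequence all passed the test. Cpe, carboxypeptidase E of the secretory granule, had CAST shares of 47.3%, 47.6% and 48.4% in F1i and 47.5%, 47.9% and 48.4% in F1r (log2 -0.13 ± 0.01). Slc1a2, the main glutamate transporter of astrocytes, leaned to CAST, with 51.7%, 51.8% and 52.2% in F1i and 51.4%, 51.9% and 52.6% in F1r (0.11 ± 0.01). Sparcl1, Snhg11, Zwint, Spock2, Aldoc and Scd2 leaned to C57 by 0.07 to 0.13 log2 units in all 18 libraries. Mbp, the myelin basic protein gene, was the exception, at -0.04 ± 0.01 with 12 libraries leaning to C57 and 6 to CAST, and its call was lost in 4 alternatives. The 6 were the libraries with second label number 1 in both crosses, and what that number stands for is not given. No gene of the 10 reached a fold of 1.2 by test.

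The most closely measured genes without a call were App, the amyloid precursor protein gene, Cds2, Map1a, Calm3, Rtn3 and Rab3c, each with an SE of 0.01 and a ratio between -0.01 and 0.00. For App the CAST share ran from 49% to 50.6% in F1i and from 49% to 50.4% in F1r. For Rab3c, a synaptic vesicle GTPase, it ran from 49.4% to 51.4% over all libraries. With a TMM factor for every allele column, which shifts all ratios by 0.02 log2 units toward C57, all 6 of them were called as C57 higher.

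Serotonin is made from tryptophan by tryptophan hydroxylase (Tph2 in neurons) with a biopterin cofactor and by aromatic amino acid decarboxylase (Ddc), and is cleared by Slc6a4. All 14 members of this list with own sequence were called, 6 with CAST and 8 with C57 higher, against 66% of all such genes. The median ratio was -0.21, against -0.0004 over all genes with own sequence. Against a fold of 1.2 the counts were 3 and 5, beside 909 and 890 of all 9647. Calls rise with depth as given above, and the part of depth in this count was not tested.

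Tph2 had CAST shares of 44.2%, 45.8% and 47.1% in F1i and 44.2%, 45.1% and 46% in F1r, so that C57 was higher in all 18 libraries, by 1.2-fold (log2 -0.27 ± 0.01). Ddc was more uneven, with 35%, 36.7% and 37.5% in F1i and 31.6%, 33.7% and 34.5% in F1r, and a ratio of -0.90 ± 0.02. The crosses did not overlap for Ddc, a gene with described imprinting in some tissues, and the parental term (F1i minus F1r, divided by 2) was 0.10 log2 units (adjusted p = 4.85e-05, edgeR quasi-likelihood test, Benjamini-Hochberg). Slc6a4, the serotonin transporter, leaned to CAST (0.14 ± 0.01). Of the enzymes of the biopterin cofactor, Pts (-0.52 ± 0.04) and Gch1 (-0.20 ± 0.03) were higher from C57 and Pcbd1 (0.26 ± 0.02), Pcbd2 (0.69 ± 0.12) and Gchfr (0.41 ± 0.03), which regulates Gch1, from CAST. Aldh1b1 (-1.02 ± 0.07) and Aldh7a1 (-0.69 ± 0.02), which oxidise aldehydes, were higher from C57, and the low-affinity transporters Slc22a3 (0.44 ± 0.03) and Slc29a4 (-0.32 ± 0.03) went opposite ways.

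Of 11 transcription factors of the serotonergic lineage 3 passed the test (27.3%, against 66% of all genes with own sequence), 2 with CAST and 1 with C57 higher. Fev, the factor that maintains serotonergic identity, was at 0.02 ± 0.03 and En2 at -0.02 ± 0.03. Sall3 (0.54 ± 0.07) and Foxa2 (0.27 ± 0.10) were higher from CAST, and Gata2 (-0.44 ± 0.15) from C57. Scaled by TMM the counts were 1 and 1. Of 8 serotonin receptor genes 5 were called (62.5%), 2 with CAST and 3 with C57 higher (1 and 3 scaled by TMM). Htr5b, a receptor of raphe and habenula, had CAST shares of 14.3%, 23.7% and 31.5% in F1i and 20%, 27.6% and 33.3% in F1r, or -1.52 ± 0.08. Htr4 (-0.88 ± 0.12) and Htr2a (-0.38 ± 0.13) also favoured C57, and Htr1d (0.36 ± 0.07) and Htr5a (0.10 ± 0.04) favoured CAST, the last with a call lost in 10 of 14 alternatives. Htr1a, the autoreceptor of serotonin neurons, was at 0.00 ± 0.02.

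Receptors for other monoamines, acetylcholine and histamine were called in 9 of 18 cases (50%, against 66% of all). CAST was higher for 4 and C57 for 5 (3 and 6 scaled by TMM). The nicotinic subunits differed among themselves: Chrna6 was at -0.61 ± 0.06, Chrnb3 at 0.44 ± 0.04 and Chrna4 at 0.33 ± 0.03. Adra2a, the alpha-2A adrenoceptor, was at -0.45 ± 0.05.

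Neuropeptide genes were called in 20 of 28 cases (71.4%, against 66% of all), 9 with CAST and 11 with C57 higher. Their receptors were called in 22 of 34 (64.7%), 16 and 6. The receptor list had a median ratio of 0.13. Against a fold of 1.2, 9 and 2 of its members passed, beside 909 and 890 of all 9647 genes with own sequence. Trh, the thyrotropin-releasing hormone gene, had CAST shares of 33.9%, 37.9% and 40.1% in F1i and 33.1%, 37% and 41.2% in F1r (-0.74 ± 0.03). Pdyn, which encodes dynorphins, had 33%, 38.2% and 41.3% in F1i and 30.2%, 33.7% and 36.3% in F1r (-0.90 ± 0.04). Tac2, which encodes neurokinin B, was at 1.08 ± 0.10 and Cbln1, a synaptic organiser, at 0.64 ± 0.05. No library of Trh or Pdyn reached an even share.

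The cholecystokinin receptors went opposite ways. Cckbr had CAST shares of 27.9%, 32.3% and 37.9% in F1i and 27.2%, 31.8% and 39.3% in F1r (-1.12 ± 0.05), and Cckar had 51.6%, 66.7% and 75.9% in F1i and 55%, 63.2% and 71.2% in F1r (0.85 ± 0.09). Every library leaned to C57 for the first and to CAST for the second. Npy2r, a neuropeptide Y receptor, was at -0.81 ± 0.04 and Avpr1a, a vasopressin receptor, at 0.80 ± 0.08.

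In glutamate, GABA and glycine receptor genes 20 of 37 were called (54.1%, against 66% of all), 5 with CAST and 15 with C57 higher. Their median size was 0.07 log2 units, and only 1 and 2 passed against a fold of 1.2, beside 909 and 890 of all 9647. Gria1, an AMPA receptor subunit, was at -0.42 ± 0.02 and Grm3, a metabotropic receptor, at -0.38 ± 0.03. Gabra2, the alpha-2 subunit of the GABA-A receptor, stood apart from the list at 1.43 ± 0.03. Presynaptic release genes were called in 27 of 37 cases (73%), 16 and 11. Beyond a fold of 1.2 there were 1 and 1: Syt5 (0.45 ± 0.02) and Rab3b (-0.35 ± 0.03), a vesicle protein and a vesicle GTPase.

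Potassium channel genes were called in 37 of 50 cases (74%, against 66% of all). CAST was higher for 18 and C57 for 19 (12 and 20 scaled by TMM). Kcnj16, an inward rectifier of astrocytes and brainstem neurons, had CAST shares of 63.7%, 65.2% and 66.1% in F1i and 64.7%, 65.4% and 67.4% in F1r (0.92 ± 0.01; mean summed count 3377). Its libraries lay within 4 percentage points of each other, all above 63%. Kcnk13 was at 0.57 ± 0.05 and Kcnk10 at -0.58 ± 0.10. Sodium, calcium, HCN and TRP channel genes were called in 32 of 46 cases (69.6%), 18 and 14 (14 and 17 scaled by TMM). Scn7a, a sodium sensor, was at -0.67 ± 0.04, Cacna1i, a T-type calcium channel, at -0.41 ± 0.04 and Trpm2 at 0.37 ± 0.02. Calcium signalling proteins of neurons were called in 23 of 32 cases (71.9%), 9 and 14, none beyond 0.5 log2 units.

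**Figure D3:**
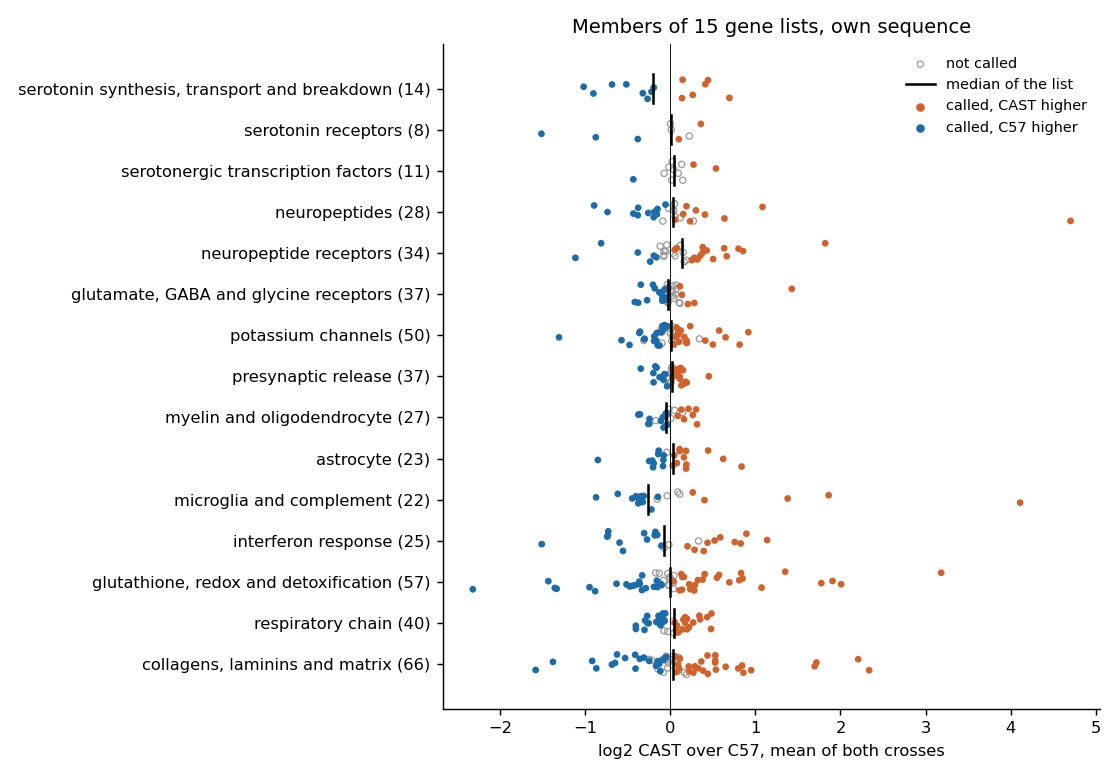
Log2 CAST over C57 ratio (x axis) of the members with own sequence of 15 gene lists, 1 point a gene, with the number of members in brackets. Filled points passed an adjusted p of 0.05, open points did not, and black ticks are list medians. Most medians lie near 0; microglia and complement genes have the lowest, at -0.27, with C3, Mpeg1 and Fcrls far to the right.

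Among glial lists the microglia and complement genes had the lowest median, -0.27, with 5 called for CAST and 13 for C57 of 22. The share called was 81.8%, against 66% of all genes with own sequence. Against a fold of 1.2 the counts were 4 and 9, beside 909 and 890 of all 9647. The complement C1q genes C1qa (-0.38 ± 0.04), C1qb (-0.45 ± 0.03) and C1qc (-0.40 ± 0.05) and the microglial membrane genes Tmem119 (-0.34 ± 0.04), Trem2 (-0.32 ± 0.06) and Selplg (-0.87 ± 0.04) were higher from C57. The C1q genes lie side by side and may not vary on their own. Beside C3, the CAST allele was higher for Mpeg1, a pore-forming protein of phagocytes, with shares of 74%, 80.5% and 84.1% in F1i and 73.4%, 77.3% and 84.4% in F1r (1.86 ± 0.06). It was also higher for Fcrls, an Fc receptor-like gene of microglia, with 68.2%, 73.5% and 77.3% in F1i and 65.9%, 71.5% and 77.7% in F1r (1.38 ± 0.05).

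Astrocyte genes were called in 22 of 23 cases (95.7%, against 66% of all), 12 with CAST and 10 with C57 higher. Itih3, a matrix-stabilising protein of astrocytes, had CAST shares of 34.5%, 36.1% and 37.3% in F1i and 34.3%, 35.4% and 36.7% in F1r (-0.85 ± 0.01). Mt3, the brain metallothionein, was at 0.44 ± 0.02. Myelin and oligodendrocyte genes were called in 20 of 27 cases (74.1%), 7 and 13, with 1 and 1 beyond a fold of 1.2. Mobp, a myelin protein, was at -0.38 ± 0.01 and Olig1 and Olig2, neighbouring transcription factors of the lineage, at -0.26 ± 0.02 and 0.21 ± 0.03. Endothelial and mural genes were called in 10 of 20 cases (50%), 3 and 7. Rgs5, a pericyte gene, had CAST shares of 25.5%, 27.4% and 29% in F1i and 24%, 28.2% and 30.4% in F1r (-1.39 ± 0.03), and Vtn, vitronectin, was at -0.72 ± 0.04.

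Immune recognition genes held large ratios in both directions. Of 8 histocompatibility and antigen presentation genes with own sequence 5 were called for CAST and 2 for C57 (87.5% called, against 66% of all). H2-T24 had CAST shares of 9.09%, 16.9% and 27.5% in F1i and 7.69%, 16.9% and 24.4% in F1r (-2.25 ± 0.10). Among 9 set apart, 2 favoured CAST and 5 C57, with the classical class I genes H2-D1 at -3.24 ± 0.10 and H2-K1 at -1.41 ± 0.07. Interferon response genes were called in 22 of 25 cases (88%), 10 and 12. Of these 8 and 6 passed against a fold of 1.2, beside 909 and 890 of all 9647. Ifit2 was at -1.51 ± 0.06, Gbp3 at 1.14 ± 0.07 and Trim21, an antibody receptor of the cytosol, at 0.89 ± 0.06. The median size in this list was 0.44 log2 units, against 0.14 over all genes with own sequence.

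Glutathione, redox and detoxification genes were called in 46 of 57 cases (80.7%, against 66% of all), 25 with CAST and 21 with C57 higher. At 1 log2 unit or more 17.5% were called, against 3% of all genes with own sequence. Related enzymes went opposite ways: Gstm7 was at 1.91 ± 0.07 and Gsta4 at -1.34 ± 0.04, both glutathione transferases. Among cytochrome P450 genes Cyp2d22 (1.07 ± 0.02), Cyp4f15 (1.35 ± 0.08) and Cyp2j12 favoured CAST and Cyp4f14 (-2.32 ± 0.13) and Cyp39a1 (-1.44 ± 0.08) favoured C57. Aldh1a1, a retinaldehyde dehydrogenase with a mean summed count of 4748, was at -0.88 ± 0.01. The paralogs in these families resemble each other, and the rule on shared words removes only those that share 10% or more.

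In the list of collagens, laminins and matrix proteins 47 of 66 were called (71.2%, against 66% of all genes with own sequence). CAST was higher for 27 and C57 for 20, and 9.09% were called at 1 log2 unit or more. Lama3, a laminin chain, had CAST shares of 81.8%, 83.6% and 87.4% in F1i and 78.7%, 81.6% and 85.3% in F1r (2.34 ± 0.04). Col6a5, a collagen chain, had 77.7%, 82.4% and 85.3% in F1i and 79.4%, 84% and 85.3% in F1r (2.21 ± 0.06). Col14a1 was at 1.70 ± 0.09 and the protease gene Adamts20 at -1.38 ± 0.04. Cadherins and protocadherins were called in 28 of 44 cases (63.6%), 14 and 14, with Pcdhb18 at 0.94 ± 0.05. Axon guidance genes were called in 41 of 64 cases (64.1%), 22 and 19 (16 and 22 scaled by TMM). Sema3c was at 0.52 ± 0.04 and Plxnd1 at -0.54 ± 0.05.

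Respiratory chain genes with own sequence were called in 36 of 40 cases (90%, against 66% of all), 19 and 17, none at 0.5 log2 units or more. Their median size was 0.16 log2 units, against 0.14 over all genes with own sequence. Of 24 set apart, 12 favoured CAST and 10 C57, among them Cox5b at -4.23 ± 0.14 and Ndufa12 at -2.47 ± 0.05. Glycolysis and citric acid cycle genes were called in 23 of 30 cases (76.7%), 14 and 9, with a median size of 0.15 and Me3, a mitochondrial malic enzyme, at 1.03 ± 0.04. Cholesterol genes were called in 18 of 26 cases (69.2%), 7 and 11. The synthesis enzymes Pmvk (-1.23 ± 0.03), Hsd17b7 (-0.95 ± 0.03) and Sc5d (-0.65 ± 0.02) were higher from C57, and Lss (0.39 ± 0.02) and Dhcr7 (0.24 ± 0.03) from CAST. Fdps, a synthesis enzyme set apart for 27.9% shared words, was at 0.64 ± 0.05, with CAST higher in 18 of 18 libraries.

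For Pmvk the CAST share ran from 27.9% to 33.8% over all libraries. Lysosomal genes were called in 35 of 42 cases (83.3%, against 66% of all), 18 and 17. Tpp1, a peptidase whose loss causes a storage disease, was at -0.93 ± 0.03, Gusb, beta-glucuronidase, at -0.81 ± 0.04 and Galns, a sulfatase, at 0.79 ± 0.03. Proteasome and ubiquitin genes were called in 56 of 91 cases (61.5%), 26 and 30. Aminoacyl-tRNA synthetases were called in 20 of 32 (62.5%), 10 and 10, with Pars2 at -0.76 ± 0.06. DNA methylation and chromatin genes were called in 23 of 42 cases (54.8%), 11 and 12, with 1 and 0 beyond a fold of 1.2, Mbd1 at 0.65 ± 0.03. Zfp zinc finger genes were called in 131 of 222 cases (59%), 64 and 67, and solute carriers in 139 of 211 (65.9%), 68 and 71 (54 and 81 scaled by TMM), with the iodide symporter gene Slc5a5 at -1.13 ± 0.02.

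Immediate early genes, which respond to neuronal activity within minutes, were called in 5 of 15 cases (33.3%, against 66% of all genes with own sequence), 2 and 3. Among called members with a mean summed count of at least 50 the largest was Homer1, at 0.18 ± 0.05. None of the list passed against a fold of 1.2, beside 1799 of all 9647. Clock genes were called in 10 of 21 cases (47.6%), 6 and 4 (6 and 8 scaled by TMM). Arntl2 was at -1.19 ± 0.05 and Timeless at 1.14 ± 0.09.

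For 9 measured genes an allele of C57BL/6J has been described, and 8 of them are given. Gabra2, which carries an intronic deletion that lowers its expression in C57BL/6J, had CAST shares of 70%, 72.8% and 77.1% in F1i and 69.1%, 73.2% and 75.4% in F1r, a 2.69-fold excess. Nnt, the mitochondrial transhydrogenase that lacks exons in C57BL/6J, had 58.3%, 62% and 65.4% in F1i and 62.1%, 65.2% and 67.6% in F1r (0.79 ± 0.03). It was set apart for overlapping gene models alone: 47.8% of its words recur, but 0.698% outside such models. Mx2, an antiviral gene annotated as a pseudogene in the reference, had 81.2%, 93.1% and 100% in F1i and 90.9%, 94.4% and 98.2% in F1r (3.98 ± 0.14). In all 3 genes the CAST allele was higher in each of 18 libraries.

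Cox7a2l, a respiratory supercomplex factor that was also set apart, was at 0.35 ± 0.02, higher from CAST in 18 of 18 libraries. For P2rx7, an ATP-gated channel, Cdh23, a cadherin of hearing, and Ahr, the dioxin receptor, whose described differences change the protein or its splicing, no difference was called (-0.03 ± 0.04, 0.12 ± 0.09 and 0.11 ± 0.08). Tph2, the remaining one, is given above.

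Among the 2315 genes set apart, 1616 (69.8%) were called, 879 with CAST (38%) and 737 with C57 (31.8%) higher, and 214 (9.24%) at 1 log2 unit or more, 148 and 66. At 2 log2 units or more there were 115 (4.97%), 87 and 28. Of the 84 pseudogenes 63 favoured CAST and 10 C57, with a median ratio of 4 log2 units. Split by where the shared words lie, 1538 genes share under 10% of their words outside overlapping gene models. Of these 3.38% were called at 1 log2 unit or more, near the 3% of genes with own sequence. The other 777 share 10% or more outside such models or are pseudogenes, ribosomal protein genes or Gapdh, set apart whatever they share. Of them 20.8% were called at that size, and 368 were called for CAST and 220 for C57 at any size.

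Several of these had no more than a few C57 counts in the 18 libraries together. Cbx3-ps7 had 3031 CAST and 0 C57 counts, at least 1010-fold higher from CAST at a floor of 3 counts over all libraries, and Gm15596 had 2160 and 0, at least 720-fold. AK157302 had 10789 CAST counts against 1. Gm11847 had 2936 against 1, a ratio with an exact 95% interval of 527 to 116005 for counting error only. Gm6969 held 25422 and 24, and Gm10874 15307 and 9. On the C57 side Gapdh had CAST shares of 2.37%, 3.01% and 3.96% in F1i and 2.06%, 2.85% and 4.5% in F1r, and Pon2, a paraoxonase set apart for 14% shared words, of which 5.15% lie outside overlapping models, 2.61%, 4.02% and 8.24% in F1i and 2.97%, 4.44% and 7.53% in F1r. The others of this rank were Rps19, 4933431E20Rik (-3.95 ± 0.04), 4833420G17Rik (-3.10 ± 0.04) and Rps15a. All 44 tested ribosomal protein genes were set apart by name, and 19 favoured CAST and 14 C57, from Rps12 at 7.84 ± 0.06 to Rps19 at -5.57 ± 0.05.

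F1i and F1r come from opposite directions of the cross, and for most genes the ratio had the same sign in both. In F1i alone 5354 of 9647 genes with own sequence were called, in F1r alone 5312, and 4514 in both, which is 84.3% of the first and 85% of the second. Of the 6371 genes called over both crosses, 99.4% had the same sign in each. Across genes, which are not independent, Spearman's rho between the crosses was 0.88, and the crosses have the strain genomes and the read assignment in common. Genes called in both crosses with opposite signs numbered 42 with own sequence.

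These 42 held well-known imprinted genes, which are read from 1 parent's allele whichever strain it came from, so that the CAST share flips with the cross. Peg3, a zinc finger gene read from the father's allele, had CAST shares of 0.0546% to 0.146% in F1i and 97.2% to 99.9% in F1r. Calcr, the calcitonin receptor gene, had 98.3% to 100% in F1i and 0.35% to 4.58% in F1r. For Peg3, Calcr, Zrsr1, Impact, Zdbf2 and Meg3 the ratio averaged over the crosses (-0.99, 0.63, -1.53, -1.43, -1.23 and -1.45) is the remainder of a pair of large opposite ratios and does not describe either cross. Meg3 was set apart and is not among the 42. Of 18 maternally and 16 paternally expressed imprinted genes with own sequence, 12 and 16 differed between the crosses, against 82 of all 9647. Among the 24 genes with the largest ratios Sfi1 alone did, with CAST shares of 84.5% to 90.6% in F1i and 80% to 86.6% in F1r (adjusted p = 0.0213, edgeR quasi-likelihood test with Benjamini-Hochberg adjustment).

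**Figure D4:**
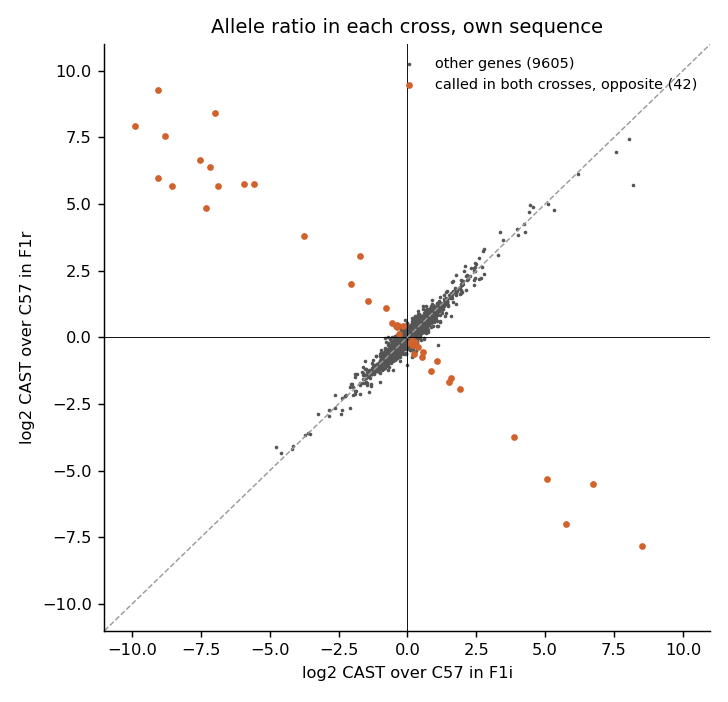
Log2 CAST over C57 ratio in F1i (x axis) and F1r (y axis) for 9647 genes with own sequence, 1 point a gene; orange marks the 42 genes called in both crosses with opposite signs. Most genes lie along the dashed line of equal ratios, and the orange genes lie in the upper left and lower right.

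The ratios were also measured in younger mice, in 14 libraries at P5 and 14 at P15, deposited as separate tables. Of the 6371 genes called in adults, 6102 were tested at P5 and 85% had the same sign there, with 3850 called in the same and 314 in the opposite direction. At P15 6150 were tested and 90.9% had the same sign, with 4293 and 122. Large adult ratios recurred: of the 289 at 1 log2 unit or more, 211 of 215 tested at P5 and 234 of 236 tested at P15 had the same sign. In bulk tissue each ratio is a mean over all cells that express the gene, and fewer cells of a type and less RNA per cell cannot be told apart.

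Of the 33 genes with the largest ratios or with described alleles, 23 had an adult ratio that differed from P5 and 18 one that differed from P15 (edgeR, 1 model of 46 libraries). The share of all genes that differed between ages is not given here, so these counts cannot be called high or low. Sec14l3 was at 2.61 ± 0.09 at P5, 4.59 ± 0.19 at P15 and 6.16 ± 0.12 in adults. Pttg1 was at -1.35 ± 0.04, -2.93 ± 0.06 and -3.60 ± 0.03, and Rtkn2 at 0.88 ± 0.10, 2.33 ± 0.10 and 2.51 ± 0.08. In these 3 genes the adult ratio was the farthest from 0, and since they were picked for large adult ratios this is the direction that the choice favours.

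Tph2, which was not picked for its size, was at -0.01 ± 0.03 at P5, -0.18 ± 0.02 at P15 and -0.27 ± 0.01 in adults, and the adult ratio differed from both. Gabra2 went the other way, at 1.83 ± 0.04, 1.46 ± 0.05 and 1.43 ± 0.03, and differed from P5 alone by these tests. C3 was highest at P15, at 2.66 ± 0.16, 4.91 ± 0.09 and 4.11 ± 0.08. Tspan10, Fabp5, Uros and Acsm5 gave no call of a difference at either age: Tspan10 was at 7.84 ± 0.17 at P5 and 7.93 ± 0.21 at P15, and Uros at -1.68 ± 0.06 and -1.55 ± 0.05.

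**Figure D5:**
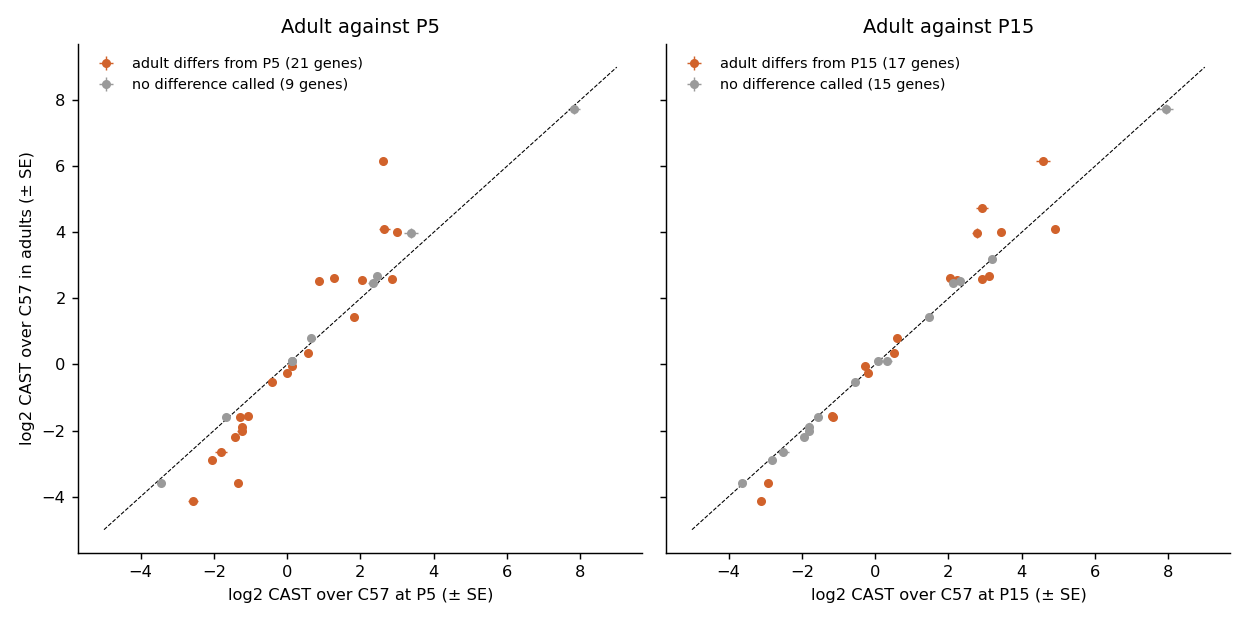
Log2 CAST over C57 ratio in adults (y axis) against P5 (left, 30 genes) and P15 (right, 32 genes), with bars of 1 SE, for the genes of largest ratio and those with described alleles that were tested at each age. Orange genes differed between the ages by test. The dashed line marks equal ratios, and at P5 several genes lie off it, with Sec14l3 well above and Pttg1 well below.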

How the data were processed

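RNA was prepared with a column kit and sequenced as 50-base single-end TruSeq reads, per the labels' protocols, and Novoalign and the mm9 build are named, per the submitters' processing notes. The authors deposited raw counts per gene and allele; how reads were credited to an allele, how reads with several matches were treated and which strand was counted is not given in the sources used here. A bias toward the reference allele would move all ratios, and none was corrected. All 36 allele columns of the 18 adult libraries were used, and no column was left unused.

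Counts were fitted with edgeR 4.0.16 (R 4.3.3): a term for each library, CAST terms for F1i and F1r, the total of both alleles as library size, a prior count of 0.125 and 16 residual degrees of freedom. Ratios were tested over 12675 genes with Benjamini-Hochberg adjustment and called at 0.05. The term for each library is a replicate block that pairs the alleles, because both are read from 1 library: log2 CPM deviations of the alleles correlated by 0.205 to 0.822 within libraries (median 0.392) and by -0.0608 in the median between libraries. The change with age came from 1 edgeR model of all 46 libraries. The allele model was tested on simulated counts with known fold changes.

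Names, chromosomes and shared 31-base words came from GENCODE M21 transcripts, matched by identifier for 14969 of 15499 genes; its build differs from mm9, so no coordinates are given. Gene sequences came from its coding regions and copy sequences from its transcripts. Genes named are the 12 largest ratios for each direction (protein coding, own sequence, mean summed count at least 100, 1 direction in 18 libraries), 6 for each direction of the genes set apart, up to 4 called genes for each of 36 lists with a mean summed count at least 50, the described C57BL/6J alleles, the 10 most abundant and the 6 most precise uncalled genes; other members are named as examples. Members and lists were chosen with earlier results of these data known. Alternatives were TMM and DESeq2 1.42.0 scaling, DESeq2, limma 3.58.1, other count minimums, no replicate block, single crosses, libraries left out, summed libraries, a minimum fold and other limits for shared words. Some results of these fits are not reported here.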

Additional observations from a re-analysis of the deposited data

Results flagged for a closer look

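In 30 of 376 sets of 9 libraries (188 named genes, 2 crosses) 1 library stood apart from the other 8 by Dixon's test at the 95% level; chance flags about 1 in 20 such sets. Of these 28 are given, and brackets give the 2 label numbers of the library. In F1i the CAST share of 1 library lay above the rest for Pon2 (3_2) 8.24%, Aldh1b1 (3_2) 49%, Chrnb3 (3_2) 64.3%, Ly6a (2_2) 43.8% and Zdbf2 (2_1) 1.76%. In F1i the CAST share of 1 library lay below the rest for AK157302 (2_3) 99.8%, Cckar (2_3) 51.6%, Kcnk10 (3_1) 24.6%, Sc5d (2_3) 35.6%, Hdac1 (2_2) 20.5% and Zfp78 (2_2) 62.2%. In F1r the CAST share of 1 library lay above the rest for Acsm5 (7_2) 92.9%, Pon2 (6_2) 7.53%, Adra2a (5_2) 55.3%, Mpeg1 (5_3) 84.4%, Sik1 (6_2) 55.6%, Calb2 (7_3) 57.6% and Meg3 (6_2) 0.559%. In F1r the CAST share of 1 library lay below the rest for Gm6969 (6_1) 99.8%, Gm11847 (6_2) 99%, Fabp7 (6_2) 43.6%, Cox6a1 (6_2) 55.9%, Psmd2 (5_1) 10.3%, Zfp78 (5_2) 37.5%, Pcdhb5 (6_2) 61.6%, Pcdhb18 (6_3) 59.4%, Zrsr1 (5_3) 94% and Peg3 (6_2) 97.2%. Library 6_2 of F1r was the one that stood apart in 9 of the 30 sets. It held 7019584 allele counts, where libraries ran from 4912934 to 13085952, and the part of depth in the flags was not tested. The flags of AK157302 and Gm11847 each rest on 1 C57 count. Sets in which all 9 shares were equal are among the 376 but could not be flagged.

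The log2 CAST over C57 ratio differed between the crosses by edgeR's quasi-likelihood test for 8 of the named genes. The parental term (F1i minus F1r, divided by 2) was Sfi1 0.21, Ddc 0.10, Meg3 8.11, Calcr 6.11, Zrsr1 -7.52, Impact -7.10, Zdbf2 -6.07 and Peg3 -8.90. Except for Sfi1 these are in the lists of imprinted genes.

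Between ages the ratio differed by edgeR's test in 1 model of 46 libraries for 23 of 33 genes at P5 and for 18 at P15. For those given, the adult minus P5 difference in log2 units was Sec14l3 3.51, Thbs4 3.68, C3 1.45, H2-Ab1 1.02, Pla2g4e 1.33, Sfi1 -0.28, Wdfy1 0.50, Rtkn2 1.63, Lbp -1.54, Pttg1 -2.25, 4930447C04Rik -0.84, Clic6 -0.84, Abca8a -2.63, Upp2 -0.76, Cd59a -0.78, A2ml1 -0.66, Mttp -0.31, Hikeshi -0.50, Gabra2 -0.41, P2rx7 -0.17, Tph2 -0.26 and Cox7a2l -0.22. The adult minus P15 difference was Sec14l3 1.52, Thbs4 1.79, C3 -0.81, H2-Ab1 0.59, Cenps -0.45, Pla2g4e 0.57, Sfi1 -0.32, Wdfy1 0.33, Lbp -0.9999, Pttg1 -0.66, Abca8a -1.81, Mttp -0.46, Hikeshi -0.40, P2rx7 0.23, Tph2 -0.086, Nnt 0.19, Mx2 1.18 and Cox7a2l -0.17. Adult, P15 and P5 counts come from 3 separately deposited tables, so age and any difference in how the tables were made cannot be told apart. P2rx7 had no call of an allele difference in adults, at -0.03 ± 0.04, and differed from the younger ages in opposite directions.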

How the results depend on the processing

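Of 188 named genes 153 kept direction and call in each of 14 alternatives. Of the others 24 lost a call somewhere, 23 of them against a fold of 1.2, 5 gained one and 7 reversed. Rab3c turned to -0.019 with TMM factors. Imprinted genes reversed in 1 cross: Meg3 to 6.66 in F1i alone, and Calcr to -5.48, Zrsr1 to 5.99, Impact to 5.66, Zdbf2 to 4.84 and Peg3 to 7.91 in F1r alone.

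Calls at 1 log2 unit or more numbered 596 with own sequence and 389 set apart without a count minimum, and 122 and 85 with a mean summed count of at least 100, as more or fewer genes were tested. Against a fold of 1.2 there were 1799 calls with own sequence (909 CAST, 890 C57) and 708 set apart (399, 309). With 1% of shared words as the limit 6468 genes were set apart, with 4375 calls (2211 CAST, 2164 C57), 323 at 1 log2 unit or more, which left 3612 with own sequence (1822, 1790), 180 at that size. With 50% as the limit 355 were set apart, with 262 calls (166, 96), 89 at that size. With words in overlapping gene models not counted, an alternative chosen after seeing the data, 777 were set apart, with 588 calls (368, 220). The balance over all autosomal genes was 50.5% CAST, with 50.9% in F1i and 50.1% in F1r.

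Without the pairing of alleles within a library (no replicate block) 4581 genes with own sequence were called in place of 6371, 49.7% of them for CAST. Leaving out the libraries of 1 second label number gave 5588 to 5976 calls, limma 6248 and DESeq2 5971. TMM and DESeq2 scaling gave 6396 and 6401 calls, with 42.9% and 44.4% for CAST against 49.5%, so directions below about 0.02 log2 units depend on the scaling. In genes of low count the SE limits what can be called.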
